A study of Mus musculus with 8 samples.

Results

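The 10 genes of the insulin-like growth factor (IGF) axis and of growth hormone signalling were read from a liver expression table of 54532 genes by their symbols. The rule uses no measured value, but the 10 genes were proposed with earlier results of these data known. They were Igf1, Igfals, Igfbp1, Igfbp2, Igfbp3, Igfbp4, Ghr, Socs2, Stat5a and Stat5b. All 10 passed the minimum mean of 0.1 FPKM and were tested, together with 16645 genes in all. FPKM stands for fragments mapped to a gene, scaled for its length and by a factor for the library. That factor, as rebuilt from the values, was not the number of reads on genes. It ran from 18063236 to 20114825 in METTL3-HKD and from 14210943 to 16158035 in METTL3-Flox libraries, without overlap. The libraries came from livers of 4 METTL3-HKD mice (METTL3 flox/-; Alb-iCre, a hepatocyte-specific METTL3 knockdown) and 4 METTL3-Flox littermates (METTL3 flox/flox). METTL3 is the catalytic subunit of the enzyme complex that writes N6-methyladenosine on RNA. Every mouse in both groups had 1 h of partial warm liver ischemia and then 6 h of reperfusion, so no uninjured liver entered the comparison. The Cre was driven by the albumin promoter, which is active in hepatocytes, and the knockdown mice were heterozygous. The age of the sequenced mice was not given in the sources used here.

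Growth hormone binds its receptor GHR on hepatocytes, and the receptor-bound kinase JAK2 phosphorylates STAT5A and STAT5B, which enter the nucleus and drive Igf1, Igfals and Socs2. Circulating IGF-I is carried mostly in a ternary complex with IGFBP-3 or IGFBP-5 and the acid-labile subunit encoded by Igfals, and the liver is the main source of circulating IGF-I and of the acid-labile subunit. The smaller binding proteins IGFBP-1, IGFBP-2 and IGFBP-4 form binary complexes with IGF-I. IGFBP-1 is a hepatocyte product that fasting, glucocorticoids and stress raise and that insulin lowers through FOXO1, and SOCS2 is a feedback inhibitor of the growth hormone receptor.

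Promoter sequences are shown for Igfbp1 and Igfals, because Igfbp1 had the largest fold difference among the 10 genes and the Igfals promoter is a well-known target of STAT5. RefSeq promoter windows (GRCm38.p6) were found for 9 of the 10 genes, with 15 windows in all, and the 250 bases before the start were searched on both strands. Capitals mark the insulin response elements, bound by FOXO proteins, CAAAACA and TTATTTTG in Igfbp1, and the STAT5 motif TTCNNNGAA and the forkhead motif GTAAACA (shown here as its reverse complement) in Igfals. The Igfbp1 window was chr11:7197537-7197786 on the plus strand, and the Igfals window was chr17:24877981-24878230 on the plus strand.
Igfbp1: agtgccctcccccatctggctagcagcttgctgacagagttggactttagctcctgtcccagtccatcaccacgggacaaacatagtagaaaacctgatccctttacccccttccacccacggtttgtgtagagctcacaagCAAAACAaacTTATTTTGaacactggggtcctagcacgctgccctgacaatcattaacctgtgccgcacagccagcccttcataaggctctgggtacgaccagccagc
Igfals: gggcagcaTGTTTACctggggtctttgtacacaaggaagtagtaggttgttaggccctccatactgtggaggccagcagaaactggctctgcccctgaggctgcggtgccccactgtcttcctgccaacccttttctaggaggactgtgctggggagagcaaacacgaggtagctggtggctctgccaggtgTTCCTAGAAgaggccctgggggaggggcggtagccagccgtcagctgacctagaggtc

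In Igfbp1 the 2 elements began 108 and 98 bases before the start, in opposite orientations and separated by 3 bases that were part of neither. CAAAACA was found in 5.56% and TTATTTTG in 1.49% of all 32851 promoters. A second Igfals window, chr17:24877594-24877843, held another STAT5 motif 236 bases before its own start. The third Igfals window, chr17:24878497-24878746, which is nearest to the gene start in the deposited table, held none of the motifs searched. TTCNNNGAA occurred in 7.02% and GTAAACA in 3.17% of all promoters, and neither was found in a window of another of the 10 genes. The AP-1 motif TGANTCA, found in 6.75% of all promoters, occurred in a window each of Ghr, Igf1 and Igfbp2. These matches describe letters in a window and do not show that a factor binds there.

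Of the 10 genes, Igfbp1 was higher and Ghr was lower in METTL3-HKD livers at an adjusted p under 0.05 (limma on log2(FPKM + 0.1), two-sided, Benjamini-Hochberg over all genes tested). That is 1 of 10 called in each direction, against 9.05% of all genes called higher and 6.63% called lower (15.7% in either direction), so the number called does not set these genes apart. The groups did not overlap for Igfbp1, Ghr and Igfbp4, that is 1 of 10 higher and 2 of 10 lower, against 12.7% of all genes higher, 9.95% lower and 22.6% in either direction. At an unadjusted p under 0.05, 1 of the 10 genes was higher and 3 were lower, against 31.9% of all genes in either direction. The median log2 difference of the 10 genes was -0.14, with 2 positive and 8 negative, beside -0.00 for all genes tested. The transcript for IGF-I itself did not separate the groups.

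**Figure D1:**
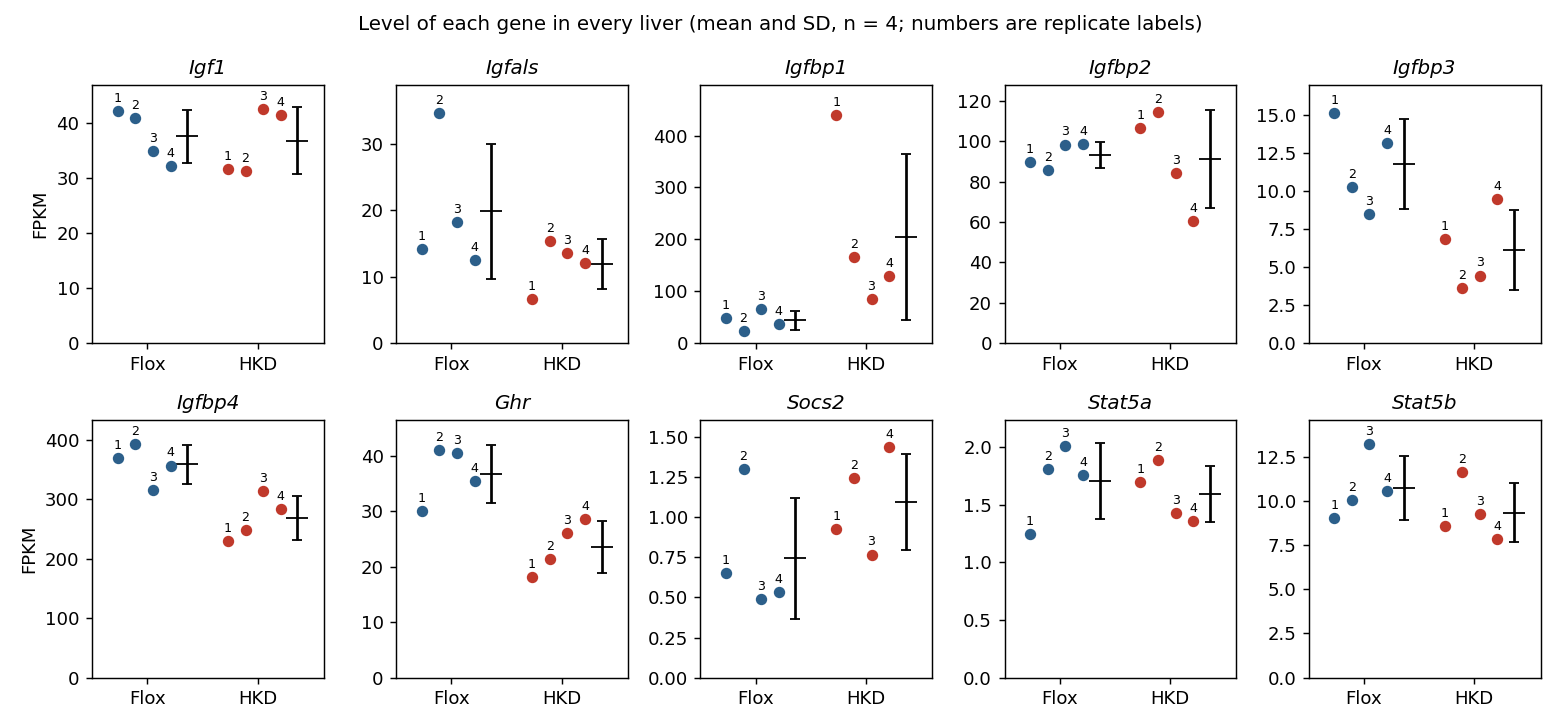
FPKM of each of the 10 genes in each liver, on linear axes from 0 that differ between genes, with 1 numbered point per liver and the mean ± SD (n = 4) of each group beside it. The 4 METTL3-HKD livers lie above all METTL3-Flox livers for Igfbp1 and below them for Ghr and, narrowly, Igfbp4.

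Igf1 (ENSMUSG00000020053, chr10:87858265-87937042, plus strand, GRCm38) encodes the ligand. Its levels, always given here in the order of liver 1, 2, 3 and 4, were 31.8, 31.4, 42.7 and 41.5 FPKM in METTL3-HKD. They were 42.3, 41.0, 35.0 and 32.2 FPKM in METTL3-Flox. The groups overlapped across almost their whole range, with 2 livers near the low end and 2 near the high end in each. The means were 36.8 ± 6.09 and 37.6 ± 4.79 FPKM (SD, n = 4), and the log2 difference was -0.04 with a 95% confidence interval of -0.35 to 0.28 (SE 0.140, limma adjusted p = 0.887). Between 5140 and 7638 reads per library stood behind these values, and counting error was small beside the spread between livers.

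Igfals (ENSMUSG00000046070, chr17:24878770-24882008, plus strand), the acid-labile subunit, was listed at 6.64, 15.4, 13.6 and 12.1 FPKM in the METTL3-HKD livers. In the METTL3-Flox livers it was at 14.1, 34.7, 18.2 and 12.5 FPKM. The highest METTL3-Flox liver and the lowest METTL3-HKD liver stood well away from the rest, and the other livers lay together. The means were 11.9 ± 3.77 and 19.9 ± 10.1 FPKM (SD, n = 4). The log2 difference was -0.68 with an interval of -1.47 to 0.11 (limma adjusted p = 0.216), so neither equality nor a 2-fold lower level was outside the interval. The deposited table gives Igfals a length of 2111 bases, whereas the GENCODE gene of the same build starts at 24865997 and has 3167 exon bases. Its FPKM, and so its place among the 10 genes by level, depends on which model is used.

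Igfbp3 (ENSMUSG00000020427, chr11:7206086-7213923, minus strand), the binding protein of the ternary complex, is known in rodent liver mainly from non-parenchymal cells. Its levels were 6.85, 3.65, 4.44 and 9.49 FPKM in METTL3-HKD livers and 15.2, 10.3, 8.49 and 13.2 FPKM in METTL3-Flox livers. The groups overlapped only through METTL3-HKD liver 4, which exceeded METTL3-Flox liver 3. The means were 6.11 ± 2.63 and 11.8 ± 2.97 FPKM (SD, n = 4), and the log2 difference was -1.0 (SE 0.299, interval -1.68 to -0.32), which missed the threshold (limma adjusted p = 0.0528; exact permutation p = 0.0571, two-sided). Without METTL3-HKD liver 4 the log2 difference was -1.24 and the limma adjusted p was 0.0270. Leaving out any other library did not bring it past the threshold. Those limma adjusted p-values ran from 0.0677 (without METTL3-Flox liver 3) to 0.118 (without METTL3-Flox liver 4). Kupffer cell markers had the same direction between the groups: 5 of 9 tested were called lower and none higher. Over all genes, 6.63% were called lower and 9.05% higher. The summed level of the Kupffer cell markers was 133 to 269 FPKM in METTL3-HKD and 262 to 643 FPKM in METTL3-Flox livers. Liver by liver the sums were 238, 269, 133 and 140 FPKM in METTL3-HKD and 643, 262, 365 and 353 FPKM in METTL3-Flox. Liver sinusoidal endothelial markers had 2 of 8 called lower, with sums of 64.5 to 75.8 and 73.4 to 84.6 FPKM. The part of these cells in the Igfbp3 result was not tested, and in whole liver fewer cells of a type and less RNA per cell cannot be told apart.

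Igfbp1 (ENSMUSG00000020429, chr11:7197782-7202546, plus strand) had the largest fold difference of the 10 genes. It stood at 439.8, 166, 84.6 and 128 FPKM in the METTL3-HKD livers and at 48.6, 23.2, 65.4 and 36 FPKM in the METTL3-Flox livers. Every METTL3-HKD liver was above every METTL3-Flox liver, and METTL3-HKD liver 1 was far above the other 3. The means were 205 ± 160 and 43.3 ± 18.0 FPKM (SD, n = 4). On the log2 scale the difference was 2.05 (SE 0.492, interval 0.94 to 3.16), a 4.14-fold higher level (limma adjusted p = 0.0265; exact permutation p = 0.0286, two-sided, the smallest that 70 arrangements can give). A called difference of at least 2-fold was found upward for 4.7% and downward for 1.52% of all genes, and Igfbp1 was the only one of the 10 genes to pass both limits.

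Igfbp1 varied most of the 10 genes among METTL3-HKD livers, while Igfals (51.1%) and Socs2 (50.6%) varied more than Igfbp1 among METTL3-Flox livers. The coefficient of variation of Igfbp1 was 78.3% among METTL3-HKD and 41.6% among METTL3-Flox livers, and the highest METTL3-HKD liver had 5.20 times the level of the lowest. Without METTL3-HKD liver 1 the log2 difference fell to 1.59 and stayed past the threshold (limma adjusted p = 0.0373). The call was lost without METTL3-HKD liver 2 (adjusted p = 0.0603), METTL3-Flox liver 2 (0.0664) or METTL3-Flox liver 4 (0.0635) in the same limma model, with log2 differences of 2.06, 1.79 and 2.0. METTL3-HKD liver 1 also had the highest summed neutrophil markers (1630 FPKM) and cholangiocyte markers (369 FPKM) and the lowest summed hepatocyte markers (31828 FPKM) of the 8 libraries. The part of these cells in the Igfbp1 level was not tested.

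Igfbp1 and Igfbp3 are neighbours on chromosome 11, lying tail to tail with 3539 bases between them in the deposited coordinates. Igfbp1 was higher in METTL3-HKD livers while the log2 difference of Igfbp3 was -1.0. The ratio of Igfbp1 to Igfbp3 FPKM was 64.3, 45.4, 19.1 and 13.5 in METTL3-HKD livers and 3.21, 2.26, 7.71 and 2.73 in METTL3-Flox livers, with no overlap.

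Igfbp2 (ENSMUSG00000039323, chr1:72824503-72852474, plus strand), a second small binding protein made by hepatocytes, was at 107, 114, 84.4 and 60.4 FPKM in METTL3-HKD livers. In METTL3-Flox livers it was at 89.8, 85.9, 98.5 and 98.6 FPKM. The METTL3-HKD livers lay on both sides of the METTL3-Flox range. The means were 91.5 ± 24.3 and 93.2 ± 6.37 FPKM (SD, n = 4), with a log2 difference of -0.07 and an interval of -0.49 to 0.36 (limma adjusted p = 0.842). Its coefficient of variation was 26.6% among METTL3-HKD and 6.83% among METTL3-Flox livers. This difference in spread was not tested.

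Igfbp4 (ENSMUSG00000017493, chr11:99041244-99054392, plus strand), whose protein binds IGF-I until the protease PAPP-A cleaves it, was the most abundant of the 10 transcripts. It stood at 231, 249, 313 and 283 FPKM in METTL3-HKD livers and at 369, 394, 316 and 357 FPKM in METTL3-Flox livers. Each METTL3-HKD liver was below each METTL3-Flox liver, but the nearest pair, METTL3-HKD liver 3 and METTL3-Flox liver 3, lay almost together. The means were 269 ± 36.8 and 359 ± 32.5 FPKM (SD, n = 4). The log2 difference was -0.42 (SE 0.131, interval -0.72 to -0.13), which missed the threshold in limma (adjusted p = 0.0586), while the exact permutation test of this gene alone gave its smallest possible p of 0.0286. Without METTL3-HKD liver 3 the limma adjusted p was 0.0393 and the log2 difference was -0.50. Leaving out any other library gave a limma adjusted p of 0.0796 (without METTL3-Flox liver 3) to 0.137 (without METTL3-HKD liver 2). When libraries were scaled to their reads on genes, the log2 difference was -0.21 and the limma adjusted p was 0.214.

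**Figure D2:**
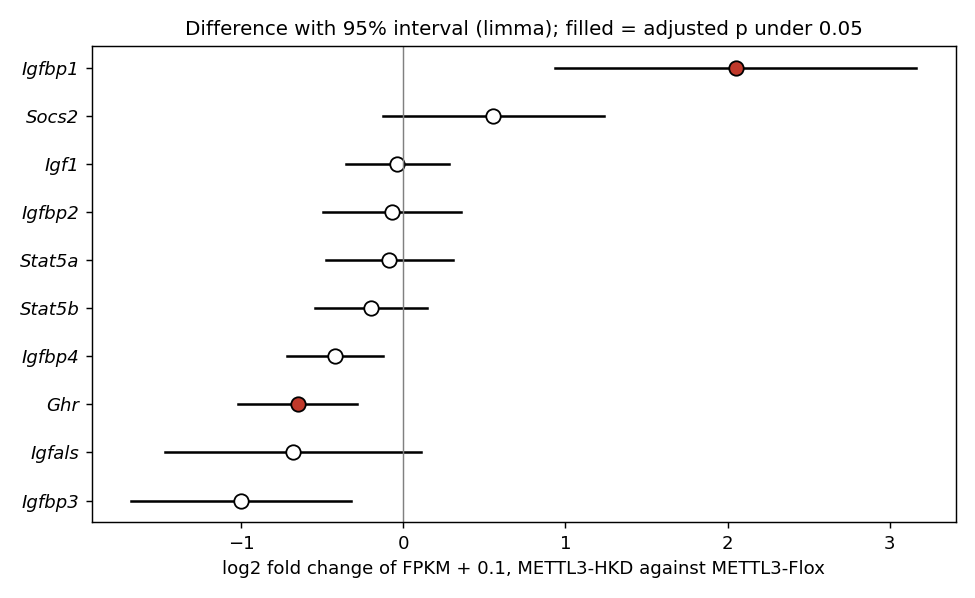
Log2 difference in FPKM (METTL3-HKD minus METTL3-Flox) of the 10 genes, with 95% confidence intervals from limma and n = 4 livers per group. The intervals of Igfbp1, Igfbp3, Igfbp4 and Ghr exclude 0, and of these only Igfbp1 (2.05) and Ghr (-0.65) passed the adjusted threshold over all genes.

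The binding proteins are set side by side because FPKM is per length. For Igfbp1 to Igfbp4 this length was all exon bases of the gene, so shares depend on the gene models. Igfbp1 made up 51.1%, 28.2%, 15.4% and 23.7% of the summed FPKM of Igfbp1 to Igfbp7 in METTL3-HKD livers, and 7.91%, 4.06%, 12.3% and 6.47% in METTL3-Flox livers. Igfbp4 made up 26.8%, 42.4%, 57.2% and 52.3% in METTL3-HKD and 60.1%, 68.9%, 59.5% and 64.2% in METTL3-Flox livers. Neither share overlapped between the groups. Shares that add to a fixed total move against each other, so these are not separate results. They are given as a description without a test.

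The mean share of Igfbp2 was 14.6 ± 3.72% against 16.5 ± 1.95% and that of Igfbp7 was 8.61 ± 1.24% against 10.2 ± 2.99% (SD, n = 4; METTL3-HKD first). Igfbp3 held 0.995 ± 0.512% and 2.06 ± 0.426% of the sum. The sum itself was 859.9, 587, 548 and 542 FPKM in METTL3-HKD livers and 614, 572, 531 and 556 FPKM in METTL3-Flox livers. Apart from METTL3-HKD liver 1, the summed transcripts of both groups lay in one range while their make-up differed.

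**Figure D3:**
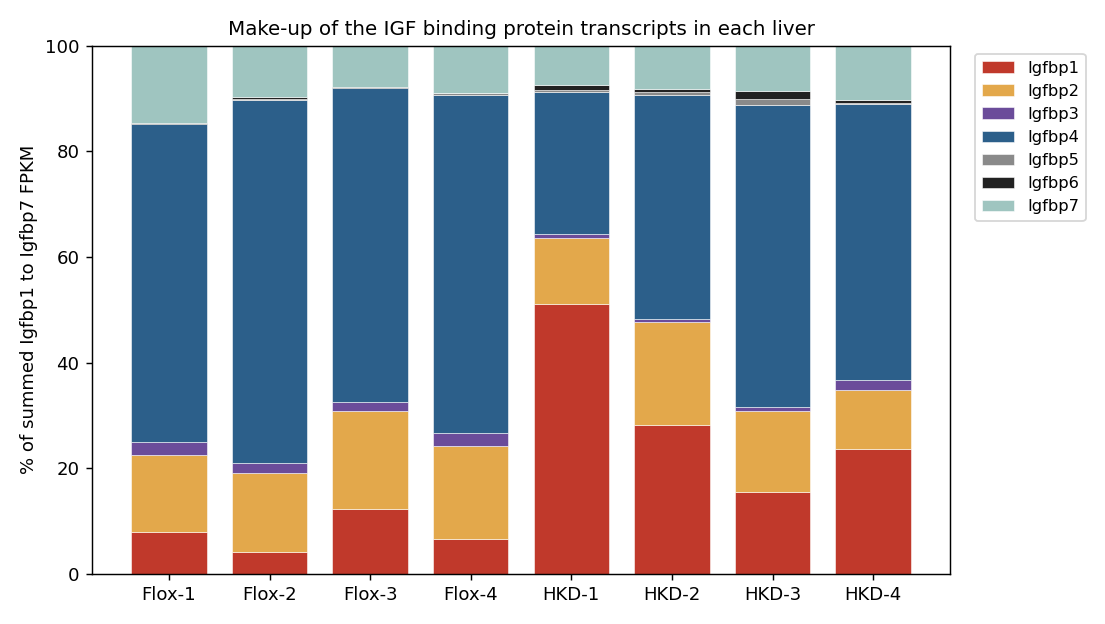
Share (percent) of each binding protein in the summed FPKM of Igfbp1 to Igfbp7, as a stacked bar for each of the 8 livers. Igfbp1 takes 15.4% to 51.1% of the sum in METTL3-HKD and 4.06% to 12.3% in METTL3-Flox livers, and Igfbp4 takes most of the remainder.

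Set against the ligand, Igfbp1 stood at 13.8, 5.27, 1.98 and 3.10 FPKM per FPKM of Igf1 in METTL3-HKD livers and at 1.15, 0.566, 1.87 and 1.12 in METTL3-Flox livers. METTL3-HKD liver 3 and METTL3-Flox liver 3 were close to each other by this ratio, as they were for Igfbp4. These ratios compare transcripts and not the secreted proteins.

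Ghr (ENSMUSG00000055737, chr15:3317760-3583492, minus strand) encodes the growth hormone receptor and, by alternative splicing, the soluble growth hormone binding protein, which a value for the whole gene does not separate. It was at 18.1, 21.3, 26.1 and 28.5 FPKM in METTL3-HKD livers and at 30.0, 41.0, 40.4 and 35.4 FPKM in METTL3-Flox livers. All METTL3-HKD livers were below all METTL3-Flox livers, with METTL3-HKD liver 4 and METTL3-Flox liver 1 nearest to each other. The means were 23.5 ± 4.69 and 36.7 ± 5.15 FPKM (SD, n = 4). The log2 difference was -0.65 (SE 0.162, interval -1.02 to -0.29; limma adjusted p = 0.0295; exact permutation p = 0.0286, two-sided), short of 2-fold.

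With any 1 library left out, the log2 difference of Ghr was -0.75 to -0.53. The Ghr call itself lay close to the threshold. It was lost in the same limma model without METTL3-HKD liver 1 (log2 difference -0.53, adjusted p = 0.0666), METTL3-HKD liver 2 (-0.61, 0.0741), METTL3-Flox liver 2 (-0.59, 0.0753), METTL3-Flox liver 3 (-0.60, 0.0824) or METTL3-Flox liver 4 (-0.67, 0.0622). It was also lost when libraries were scaled to their reads on genes, at a log2 difference of -0.44 and a limma adjusted p of 0.0897. That scaling moved the median of all genes from -0.00 to 0.20. Without that scaling, 6.63% of all genes were called lower and 9.05% higher. Hepatocyte markers, of which 2 of 15 were called lower and none higher, had a median log2 difference of -0.36. Their sums were 31828 to 45793 FPKM in METTL3-HKD and 41801 to 48974 FPKM in METTL3-Flox livers, and their part in the Ghr result was not tested.

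The levels of Ghr and Igf1 are set side by side per length, taken over all exon bases of each gene (9053 and 9904). Levels between genes therefore depend on the gene model. In METTL3-Flox livers Ghr and Igf1 were at similar mean levels, 36.7 and 37.6 FPKM, and their ranges overlapped. In METTL3-HKD livers every Igf1 value was above every Ghr value. Igf1 per Ghr FPKM was 1.76, 1.47, 1.64 and 1.46 in METTL3-HKD and 1.41, 1.00, 0.868 and 0.912 in METTL3-Flox livers, without overlap but with METTL3-Flox liver 1 close to the METTL3-HKD range.

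Stat5b (ENSMUSG00000020919, chr11:100780731-100850724, minus strand) encodes the main growth hormone-activated STAT of the liver. It was at 8.59, 11.6, 9.26 and 7.84 FPKM in METTL3-HKD and at 9.01, 10.1, 13.2 and 10.5 FPKM in METTL3-Flox livers. The groups overlapped, and the log2 difference of -0.20 (interval -0.54 to 0.15) did not pass the threshold (limma adjusted p = 0.410). Its neighbour Stat5a (ENSMUSG00000004043, chr11:100859351-100885169, plus strand, 8626 bases away) was lower in every library, at 1.69, 1.89, 1.43 and 1.36 FPKM in METTL3-HKD and 1.24, 1.80, 2.01 and 1.76 FPKM in METTL3-Flox livers. Its log2 difference between groups was -0.08 (interval -0.48 to 0.31; limma adjusted p = 0.778). The Stat5b to Stat5a ratio was 5.87 ± 0.607 in METTL3-HKD and 6.35 ± 0.727 in METTL3-Flox livers (SD, n = 4). Stat5a and Stat5b are near-identical paralogs, so the split of their reads is uncertain, and 72 exon bases of Stat5a (1.01% of its length) also belong to Stat3 on the opposite strand.

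Socs2 (ENSMUSG00000020027, chr10:95385362-95417180, minus strand) had the lowest mean FPKM of the 10 genes, although in METTL3-HKD liver 4 it was above Stat5a (1.36 FPKM). It was at 0.928, 1.24, 0.767 and 1.43 FPKM in METTL3-HKD and at 0.650, 1.30, 0.490 and 0.534 FPKM in METTL3-Flox livers. METTL3-Flox liver 2 lay within the METTL3-HKD range and the other METTL3-Flox livers lay below it. The log2 difference was 0.56 (SE 0.302, interval -0.13 to 1.24), which did not pass the threshold (limma adjusted p = 0.237). Its 71 to 254 reads per library gave a less precise value than the 5140 to 7638 reads behind Igf1.

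By mean level over the 8 livers the order was Igfbp4 (314 FPKM), Igfbp1 (124), Igfbp2 (92.3), Igf1 (37.2), Ghr (30.1), Igfals (15.9), Stat5b (10.02), Igfbp3 (8.94), Stat5a (1.65) and Socs2 (0.918). The order depends on the lengths of the gene models. Igfbp1 and Igfbp2 changed places between the groups, and their ranges overlapped in METTL3-HKD livers but not in METTL3-Flox livers. Stat5b and Igfbp3 also changed places, with ranges that overlapped in both groups.

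The genes whose profile over the 8 livers was nearest to Igfbp1 were Dusp1, Ankrd22 and Gpr141, at root-mean-square log2 differences of 0.338, 0.354 and 0.354 after centring, beside 1.26 for Igfbp1's own spread. Dusp1, a phosphatase induced early by stress, was at 33.9 ± 20.6 FPKM in METTL3-HKD and 9.33 ± 2.86 FPKM in METTL3-Flox livers with a log2 difference of 1.72. Choosing genes for a profile like that of Igfbp1 fixes such a difference, so these values are a description. For Ghr the nearest were D2hgdh (0.0511), Hectd3 (0.0596) and Phldb3 (0.0655), beside 0.394 for Ghr itself. For Igfals they were Lppos (0.231), Sult2a8 (0.260) and Fam89a (0.270), beside 0.617. For Igf1, at a spread of only 0.186, they were Rammet (0.0655), Ndufs8 (0.0662) and Tmem69 (0.0674).

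The rest of the IGF system was listed as 11 further ligand, receptor, binding protein and protease genes, of which 7 were tested, 2 were called higher and none lower, with a median log2 difference of 1.01. For this and the following lists, the shares over all genes were 9.05% higher and 6.63% lower, and nothing particular to a list is read from its count. The neutrophil markers, summing to 333 to 1630 FPKM in METTL3-HKD and 13.1 to 44.9 FPKM in METTL3-Flox livers, rose in the same livers, and their part in any of these lists was not tested. Igfbp6, which prefers IGF-II, was at 8.49, 3.84, 8.41 and 2.90 FPKM in METTL3-HKD and 1.20, 1.45, 0.592 and 0.950 FPKM in METTL3-Flox livers. Its log2 difference was 2.30 (SE 0.387, limma adjusted p = 0.0087), beside 2.05 for Igfbp1, which is far more abundant. Stc1, an inhibitor of PAPP-A, was at 0.640, 0.271, 0.396 and 0.397 FPKM in METTL3-HKD livers, and had 1, 0, 1 and 0 reads in METTL3-Flox livers (limma adjusted p = 0.0041). Igf1r, the receptor of IGF-I, is given for its role and was chosen after its values were seen: it was at 0.462 ± 0.294 against 0.158 ± 0.0302 FPKM (SD, n = 4) and missed the threshold (limma adjusted p = 0.0756).

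Among 17 tested genes of growth hormone receptor signalling and feedback, 3 were called higher and none lower, with a median log2 difference of 0.34. Jak2, the kinase bound to the receptor, rose from 4.85 ± 0.685 to 8.95 ± 2.29 FPKM (SD, n = 4; log2 difference 0.84, limma adjusted p = 0.0244), opposite in sign to Ghr. The phosphatase Ptpn2 was at 6.98 ± 1.24 against 4.22 ± 1.19 FPKM (0.73, 0.0364 by limma), and Ptpn11, which encodes SHP-2, was at 15.2 ± 1.04 against 12 ± 1.13 FPKM (0.34, 0.0422 by limma). None of the 3 was called without METTL3-HKD liver 1, METTL3-HKD liver 2 or METTL3-Flox liver 2. Jak2 was also lost without METTL3-Flox liver 4, Ptpn2 without METTL3-HKD liver 4 or METTL3-Flox livers 3 or 4, and Ptpn11 without any 1 library except METTL3-Flox liver 4. The number called higher was 1 with no minimum or without the mean-variance trend, and 5 when scaled to reads on genes. Of the 11 genes from the insulin receptor to FOXO, which relay the insulin signal that lowers Igfbp1, none was called by limma. At an unadjusted p under 0.05, 2 of them were higher and 3 lower, and their median log2 difference was -0.17.

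**Figure D4:**
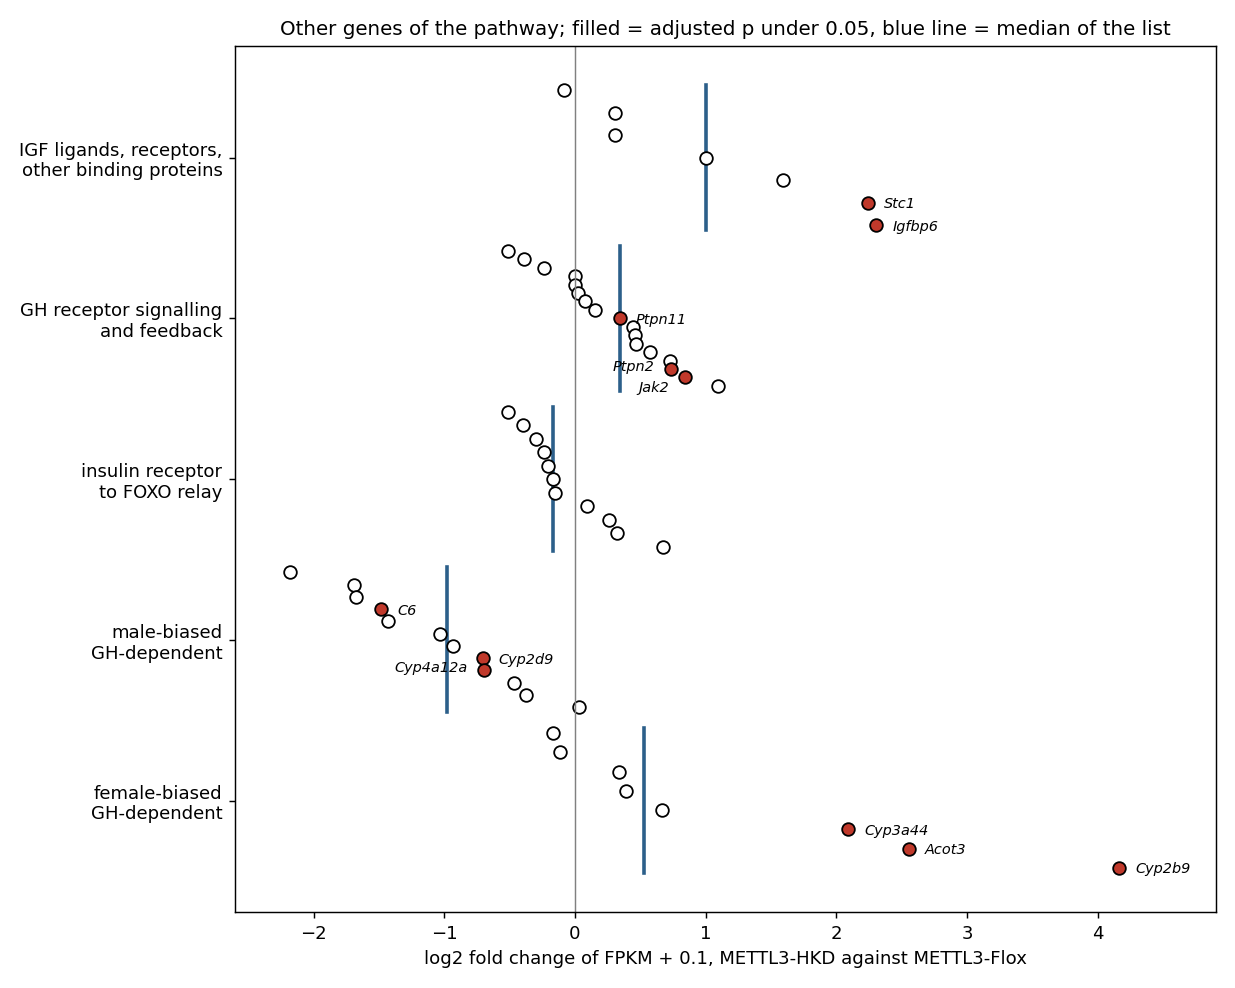
Log2 difference in FPKM (METTL3-HKD minus METTL3-Flox) of every tested gene in 5 lists around the growth hormone and IGF pathways, with genes past the adjusted threshold filled and named and a line at the median of each list. The positions of Cyp2b9, Stc1, Cyp3a44 and Acot3, low or at 0 in METTL3-Flox livers, depend on the pseudocount. Called genes lie above 0 in the IGF, receptor signalling and female-biased lists and below 0 in the male-biased list, and the insulin receptor list has none.

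Growth hormone is secreted in pulses in male mice, and STAT5B activated by these pulses keeps male-biased liver genes on and female-biased ones low. Of 12 male-biased genes, all tested, 3 were called lower and none higher, 11 had negative log2 differences, and the median was -0.98. C6, a complement component, was at 29.9 ± 18.0 against 72.7 ± 3.27 FPKM (SD, n = 4; log2 difference -1.49, limma adjusted p = 0.0313). The cytochromes Cyp2d9 and Cyp4a12a had log2 differences of -0.71 and -0.70 (limma adjusted p = 0.0390 and 0.0406). The summed list was at 843, 857, 2504 and 1581 FPKM in METTL3-HKD and 2914, 3279, 2321 and 1648 FPKM in METTL3-Flox livers. METTL3-HKD livers 1 and 2 were lowest, and METTL3-HKD liver 4 was also below every METTL3-Flox liver. The sum was weighted to its most abundant gene, Mup20, which was not called (limma adjusted p = 0.207). Mup20 was at 464, 508, 1797 and 1002 FPKM in METTL3-HKD and 2043, 2242, 1418 and 860 FPKM in METTL3-Flox livers. METTL3-HKD livers 1 and 2 had the lowest summed hepatocyte markers of all 8, at 31828 and 34403 FPKM against 41801 to 48974 FPKM in the others. The part of this in the male-biased genes was not tested. C6, Cyp2d9 and Cyp4a12a each lost their call without METTL3-HKD liver 1 or METTL3-HKD liver 2, and without any 1 METTL3-Flox liver except that Cyp4a12a kept it without METTL3-Flox liver 1. The number called lower was 0 with no minimum or without the trend and 1 when scaled to reads on genes, where Cyp2d9 and Cyp4a12a lost their calls. It was 5 at a minimum of 1 FPKM, with voom or with protein-coding genes only. The Cyp genes have close paralogs, so the split of their reads is uncertain.

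Of 13 female-biased genes, 8 were tested, 3 were called higher and none lower, and the median log2 difference was 0.53. Cyp3a44 was at 0.803 ± 0.458 against 0.116 ± 0.111 FPKM (SD, n = 4; log2 difference 2.09, limma adjusted p = 0.0153). Cyp2b9 was at 3.50, 12.2, 0.118 and 0.975 FPKM in METTL3-HKD livers and had no read in any METTL3-Flox liver (limma adjusted p = 0.0291). Against a floor of 3 reads per METTL3-Flox library, its mean was at least 40.3-fold higher, and METTL3-HKD liver 2 carried most of that mean. Acot3, an acyl-CoA thioesterase, was at 2.42, 3.94, 0.499 and 1.11 FPKM in METTL3-HKD and 0, 0.810, 0.115 and 0.217 FPKM in METTL3-Flox livers (limma adjusted p = 0.0488). Cyp2b9 lost its call without METTL3-HKD liver 1 or any 1 METTL3-Flox liver, Acot3 without METTL3-HKD livers 1, 2 or 4 or METTL3-Flox livers 1, 3 or 4, and Cyp3a44 kept it in all 8 cases. Cyp2b9 and Acot3 also lost their calls at a pseudocount of 1 FPKM, with no minimum and with voom, which left 1 gene of the list called, and Acot3 at a pseudocount of 0.01 FPKM and without the trend. The sexes of the sequenced animals were not given in the labels. 

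The libraries held 15961479 to 18434488 reads on genes in METTL3-HKD and 15861245 to 17262991 in METTL3-Flox livers, as rebuilt from the FPKM. Mettl3 itself was at 1.33 ± 0.181 against 1.5 ± 0.282 FPKM (SD, n = 4; log2 difference -0.16, limma adjusted p = 0.556), so the whole-gene level did not separate the labels. The deleted exon 4 cannot be seen in a value for the whole gene. In all, 1506 genes were called higher and 1104 lower, and 2310 and 374 when libraries were scaled to their reads on genes. All 8 neutrophil markers were called higher, with sums of 333 to 1630 FPKM in METTL3-HKD and 13.1 to 44.9 FPKM in METTL3-Flox livers (Ly6g was at 0 in a library). Cholangiocyte markers were called higher in 4 of 5 tested, with sums of 119 to 369 and 52.5 to 77.6 FPKM (Cftr was at 0 in a library). Of 8 stellate cell markers 1 was called higher and 2 lower, with sums of 44.5 to 65.5 and 44.2 to 79.4 FPKM. The part of these cells in the results for the 10 genes was not tested.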

How the data were processed

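Liver RNA of 8 mice was sequenced, and the authors deposited 1 table of FPKM per gene and library. The submitters' processing notes name GRCm38 (mm10), and the aligner, counter, annotation and strand setting were not given in the sources used here. FPKM times gene length gave whole reads for all values (tolerance 0.01), which supplied depths of 15861245 to 18434488 reads on genes. Genes averaging 0.1 FPKM or more were tested with limma 3.58.1 (R 4.3.3, mean-variance trend) on log2(FPKM + 0.1), a scale that understates changes of low genes. Calls used a Benjamini-Hochberg adjusted p under 0.05. Single genes had an exact permutation test of mean FPKM. The labels do not describe how each liver was sampled, so p-values measure the spread between these libraries. The 10 genes and all lists were chosen with earlier results of these data known. Text names the 10 genes, called list genes, Mettl3 and the 3 nearest profiles for 4 of the genes. Outside this rule, the list genes Igf1r and Mup20 are named although they were not called. Simulation with 200 genes changed 4-fold, drawn from genes above a minimum number of reads, recovered 183, with 17 false calls. In that run the false share of calls was above the 0.05 that the adjusted threshold allows on average. Of the 10 genes only Igfbp1 (4.14-fold) differed by as much. Recovery of genes as variable as Igfbp1 was not looked at separately. The recovery of smaller differences, such as that of Ghr (1.57-fold), was not simulated. Alternatives changed pseudocount, minimum, trend, weights, block, scaling, reads (voom), gene type and each library.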

Additional observations from a re-analysis of the deposited data

Results flagged for a closer look

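In 3 of 44 groups of 4 livers examined in 22 genes, 1 liver stood apart from the other 3 by Dixon's test at the 95% level, and chance alone gives about 1 in 20 such groups. Ptpn2 was at 5.99 FPKM in METTL3-Flox liver 1, with the next highest METTL3-Flox liver at 3.78 FPKM. Cyp4a12a was at 78.7 FPKM in METTL3-Flox liver 1, with the next lowest METTL3-Flox liver at 96.7 FPKM. Cyp3a44 was at 1.49 FPKM in METTL3-HKD liver 2, with the next highest METTL3-HKD liver at 0.583 FPKM. None of the 10 IGF axis and growth hormone signalling genes had a liver that stood apart by this test in either group, and this includes Igfbp1 in METTL3-HKD liver 1.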

How the results depend on the processing

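Over 18 alternatives, of which 17 tested Socs2, no called gene among the 10 changed sign. Igfbp1 was called in 15 (log2 difference 1.59 to 2.38, limma adjusted p 0.0148 to 0.0664) and Ghr in 11 (-0.75 to -0.44, 0.0203 to 0.0897), with 0.0522 without the mean-variance trend. Igfbp3 passed in 5 (adjusted p 0.0268 to 0.118) and Igfbp4 in 3 (0.0393 to 0.214). The number of the 10 genes called lower was 3 at a minimum of 1 FPKM or with protein-coding genes only, 2 with voom and 0 without the trend or scaled to reads on genes. With 1 library left out it was 0 to 2, and 0 to 1 were called higher. Over all genes, 747 to 1659 were higher and 355 to 1148 lower with 1 library left out (lowest without METTL3-Flox liver 3), 2310 and 374 when scaled to reads on genes, and 682 lower with no minimum. Replicate numbers did not pair the livers (correlations 0.0711, -0.0838, -0.0134 and -0.0339); with the replicate block 2 of the 10 genes were called lower, and 971 genes higher and 645 lower in all. Calls in the receptor signalling list ranged from 0 to 5 higher, male-biased from 0 to 7 lower and female-biased from 1 to 3 higher. Igf1, Igfbp2, Stat5a and Stat5b had log2 differences of either sign and were never called. The causes were not tested.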
